A study of Mus musculus with 3 samples.

Results

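The genes described here are 44 genes of mitosis and the G2/M transition, chosen by their function, of 22911 genes that the array probes could be named for. They were found through the RefSeq accession that each probe carries, and all 44 had at least 1 probe (70 probes in all). The rule that lists them uses their names and no measured value, but the list was chosen with earlier results of these data known. A cell that has copied its DNA enters mitosis when cyclin-dependent kinase 1 is activated by cyclins A and B. It then condenses its chromosomes, attaches them to the spindle, waits for the spindle checkpoint, separates the sister chromatids through the anaphase-promoting complex, and divides by cytokinesis. Transcripts of these proteins are made mostly in G2 and early mitosis, so in a mixed population of cultured cells they are commonly read as markers of cycling cells.

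The lines compared were Colon26, a murine colon adenocarcinoma line, its high-metastatic subline LuM1 and its low-metastatic subline NM11. The strain is given as BALB/c and the sex as female for each line, all were maintained in the same serum-containing RPMI1640 medium, and the labels name no agent, transgene or deletion for any of them. Total RNA (0.1 µg) was taken after 3 days of culture, labelled with 1 dye, and read on 1 array per line (3 arrays in all). The study asks how expression in LuM1 differs from that in NM11 and in the parental Colon26. With 1 array per line there are no replicates, so no difference below was tested against replicate error, and an SD cannot be given. The only error available is the scanner software's own, about 10% of a signal, which for these genes gave an error of the log2 ratio between 0.20 and 0.21.

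A signal here is the scanner software's background-corrected brightness, scaled so that the 75th percentile of each array became 585.1. Before scaling the percentiles lay between 551.5 (NM11) and 625.1 (LuM1). A probe counted as detected when the software marked it well above background, which held for 49.9% to 53.8% of probes, and for all 70 member probes on all 3 arrays. No member spot was saturated or an outlier. Signals of different genes come from different probes and were compared only within a gene. Of 8 epithelial markers only 2 to 3 were detected in a line, with summed signals of 162, 223 and 162 in Colon26, LuM1 and NM11, and the defining markers Cdh1 and Krt18 were detected in none. Of 7 colon markers Cdx2, Lgals4 and Krt20 were detected in all 3 lines and the other 4 in none, with summed signals of 1323, 399 and 423. Of 5 endothelial markers 1 was detected, Pecam1. Of 7 fibroblast markers 5 to 6 were detected, with sums of 66332, 35905 and 105811. Such sums add different probes and follow their brightest genes, and single fibroblast markers ran both ways between Colon26 and LuM1. Of 7 leukocyte markers 4 to 5 were detected, with sums of 6537, 13334 and 5808, although the pan-leukocyte gene Ptprc and the macrophage gene Adgre1 were detected in none. Whether these other markers have a part in the results was not tested. In bulk RNA a lower share of cells in G2 or mitosis and less of a transcript per such cell cannot be told apart.

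Many mitotic genes carry a common pair of promoter elements, the cell cycle genes homology region (CHR, core TTTGAA) near the start site and CCAAT boxes upstream of it, the latter bound by the factor NF-Y. The CHR is known as the site where complexes that contain MYBL2 and FOXM1 act on G2/M genes. RefSeq promoter windows of the build GRCm38.p6, from 250 bases before to 50 bases after an annotated start, were held for 36 of the 44 genes (39 windows). They were searched on both strands for TTTGAA and for CCAAT. The 8 windows printed here are each 180 bases long, with 130 bases before the annotated start. They come from genes whose signal differed much, little or not at all between lines. All of these 8 hold the CHR core, which 10 of the 36 genes lack. The window of Birc5, which is not printed, held neither the core nor CCAAT. Its log2 ratio of LuM1 over Colon26 was -1.13, below the -1.04 of Aurka. The capitals mark every match on either strand. The CHR core of the opposite strand reads TTCAAA here. A CCAAT box of the opposite strand reads ATTGG. Ccnb2 (chr9:70421505-70421684, minus strand), Aurka (chr2:172370521-172370700, minus strand), Anln (chr9:22389157-22389336, minus strand) and Ube2c (chr2:164769799-164769978, plus strand) had LuM1 signals at least 2-fold below those of Colon26. Cdk1 (chr10:69352863-69353042, minus strand) and Cdc20 (chr4:118437294-118437473, minus strand) were lower in LuM1 and higher in NM11 than in Colon26. Mki67 (chr7:135716330-135716509, minus strand) and Kif11 (chr19:37376252-37376431, plus strand) were not lower in LuM1 than in Colon26.
Ccnb2: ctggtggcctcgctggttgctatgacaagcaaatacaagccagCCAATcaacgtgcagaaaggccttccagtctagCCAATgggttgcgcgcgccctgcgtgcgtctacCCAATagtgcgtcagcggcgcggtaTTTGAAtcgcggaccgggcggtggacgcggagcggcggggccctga
Aurka: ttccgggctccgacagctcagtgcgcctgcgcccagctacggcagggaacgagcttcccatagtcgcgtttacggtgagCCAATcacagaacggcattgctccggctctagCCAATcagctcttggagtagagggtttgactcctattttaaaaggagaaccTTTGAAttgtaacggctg
Anln: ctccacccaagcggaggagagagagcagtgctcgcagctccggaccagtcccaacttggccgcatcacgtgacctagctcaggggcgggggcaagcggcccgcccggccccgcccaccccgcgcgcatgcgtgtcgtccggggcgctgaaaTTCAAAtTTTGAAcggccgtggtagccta
Ube2c: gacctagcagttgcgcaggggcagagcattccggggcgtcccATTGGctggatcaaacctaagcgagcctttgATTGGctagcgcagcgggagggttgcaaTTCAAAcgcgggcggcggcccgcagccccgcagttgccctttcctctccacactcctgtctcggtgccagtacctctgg
Cdk1: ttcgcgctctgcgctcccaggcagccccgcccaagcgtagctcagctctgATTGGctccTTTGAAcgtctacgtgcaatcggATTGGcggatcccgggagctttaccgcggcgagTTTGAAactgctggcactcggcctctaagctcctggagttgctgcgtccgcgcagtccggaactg
Cdc20: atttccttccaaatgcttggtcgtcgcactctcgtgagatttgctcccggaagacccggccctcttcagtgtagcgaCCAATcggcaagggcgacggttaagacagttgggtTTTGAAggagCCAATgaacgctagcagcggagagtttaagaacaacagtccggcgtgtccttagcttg
Mki67: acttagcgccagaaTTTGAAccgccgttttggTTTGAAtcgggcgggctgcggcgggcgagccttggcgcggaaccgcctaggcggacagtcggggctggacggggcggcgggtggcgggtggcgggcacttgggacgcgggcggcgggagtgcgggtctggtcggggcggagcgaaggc
Kif11: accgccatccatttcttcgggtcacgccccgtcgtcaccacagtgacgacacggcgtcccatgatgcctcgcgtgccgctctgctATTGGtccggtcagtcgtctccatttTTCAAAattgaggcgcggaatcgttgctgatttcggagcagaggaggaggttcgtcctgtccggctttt

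The CHR core was present in 29 of the 39 member windows (74.4%), against 17.9% of all 32851 windows of the same length. CCAAT was present in 31 of the 39 (79.5%), against 37.4% of all windows, and both were present together in 26 (66.7%), against 6.95%. CCAAT was also frequent in the comparison lists, at 59.1% of windows of other G2/M genes, 57.4% of S-phase genes and 60.9% of cell cycle inhibitors. In 23 of the 26 genes with a CHR core, a match began within 50 bases of the annotated start. Counted over windows that held the core, 25 of 29 member windows (86.2%) had such a match, against 27.6% of the 5878 windows with the core among all. The median first base of the 37 CHR core matches was 18 bases before the start, and that of the 67 CCAAT matches was 71 bases before it. At 1 place a CHR core and a CCAAT match shared bases. Among the comparison lists, 39.8% of windows of other G2/M genes, 12.8% of windows of S-phase genes and 8.70% of windows of cell cycle inhibitors held the CHR core. These matches are letters in a window, and whether a factor binds there was not measured.

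**Figure D1:**
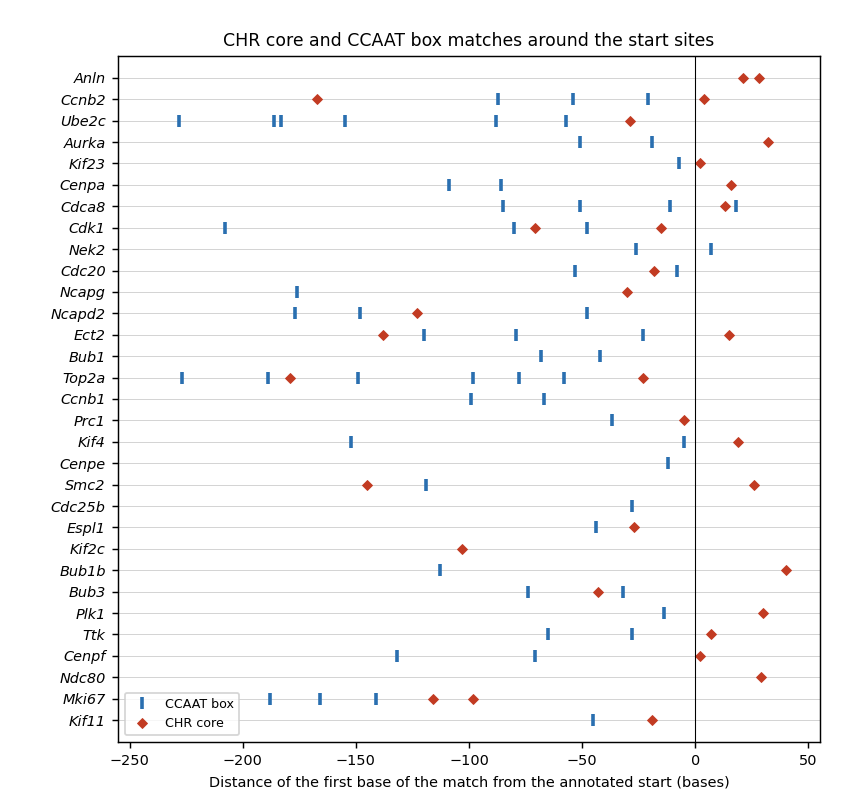
Matches to the CHR core (diamonds) and to the CCAAT box (ticks) in the promoter windows of the 31 genes that held either, 1 window per gene, by the distance of the first base of the match from the annotated start in bases. Genes are ordered from the lowest (Anln) to the highest (Kif11) log2 ratio of LuM1 over Colon26 among those drawn. Most diamonds lie near the start, and those of Ncapd2, Kif2c and Mki67 lie only further upstream.

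LuM1 held the lowest signal of the 3 lines for 39 of the 44 genes, whereas LuM1 was the lowest line for 45.7% of the 12245 genes detected on all arrays. It held the highest signal for 1 member, Kif11, against 29.1% of all genes. Colon26 was highest for 19 members and NM11 for 24, against 38.2% and 32.7% of all genes, and they were lowest for 3 and 2 members, against 28% and 26.3%. Colon26 and NM11 thus shared the upper place among the members, while LuM1 held the lowest in nearly all. These places hold for arrays scaled to their 75th percentile. In the 5 genes where LuM1 was not lowest (Cenpf, Ndc80, Nuf2, Kif11 and Mki67), the widest difference of LuM1 from Colon26 was that of Kif11, at 0.45 on the log2 scale.

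Between LuM1 and Colon26, 41 of 44 log2 ratios were below 0, with a median of -0.52 and a range from -1.44 to 0.45, whereas in the authors' processed values 27 of 44 were below 0 with a median of -0.072. Of all 12394 genes measured on both arrays 7230 were below 0 with the scaling used here. Their median was -0.13, so that the members lay 0.39 below it. At least 2-fold lower were 9 members (20.5%), against 11.8% of all genes, and no member was 2-fold higher, against 13.1%. Beyond 2 scanner errors 29 members were lower, against 31.8% of all genes, and 1 was higher, against 21.6%. The 9 genes were Ccna2, Ccnb2, Cdc25c, Aurka, Foxm1, Ube2c, Birc5, Kif20a and Anln, with ratios of 2.05-fold to 2.71-fold. Of these calls 0 were left in the authors' processed values and 5 with quantile normalization. Just inside the 2-fold limit was Aurka at -1.04, and just outside it was Kif23 at -0.90.

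Between LuM1 and NM11, 41 of 44 log2 ratios were again below 0, with a median of -0.65. Of all 12848 genes measured on both arrays 7317 were below 0, with a median of -0.11. With arrays scaled to the control gene Hprt, 25 of 44 members were below 0 and their median was -0.060. At least 2-fold lower in LuM1 were 10 members (22.7%), against 8.5% of all genes, and none was 2-fold higher, against 11.1%. They were Cdk1, Ccna2, Ccnb2, Aurka, Cdc20, Aurkb, Birc5, Kif23, Anln and Ect2. Of these calls 0 were left with Hprt, E1A or the authors' processed values, 2 with quantile normalization and 3 without scaling. Beyond 2 scanner errors 32 members were lower, against 28.2% of all genes, and none was higher, against 21.1%. Both comparisons share the LuM1 array.

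Between NM11 and Colon26 no member differed 2-fold in either direction, against 8.33% of all genes higher and 7.9% lower. The median log2 ratio was 0.11, against -0.02 over all 12469 genes, and it lay below 0 with Hprt (-0.38) or the E1A spike-in controls (-0.21) as the scale. Beyond 2 scanner errors 6 members were higher (Cdk1, Plk1, Ttk, Cdc20, Nuf2 and Ect2), against 19.1% of all genes, and 5 were lower (Cdc25c, Foxm1, Bub1, Ube2c and Kif20a), against 21.3%. The widest ratio was 1.64-fold, for Foxm1, with this scaling and the brightest probe of each gene. With Hprt 2 members were 2-fold lower in NM11 and with E1A 1 was, against 20.1% and 14.5% of all genes. Other probes gave larger ratios for Pttg1 and Ccnb1.

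**Figure D2:**
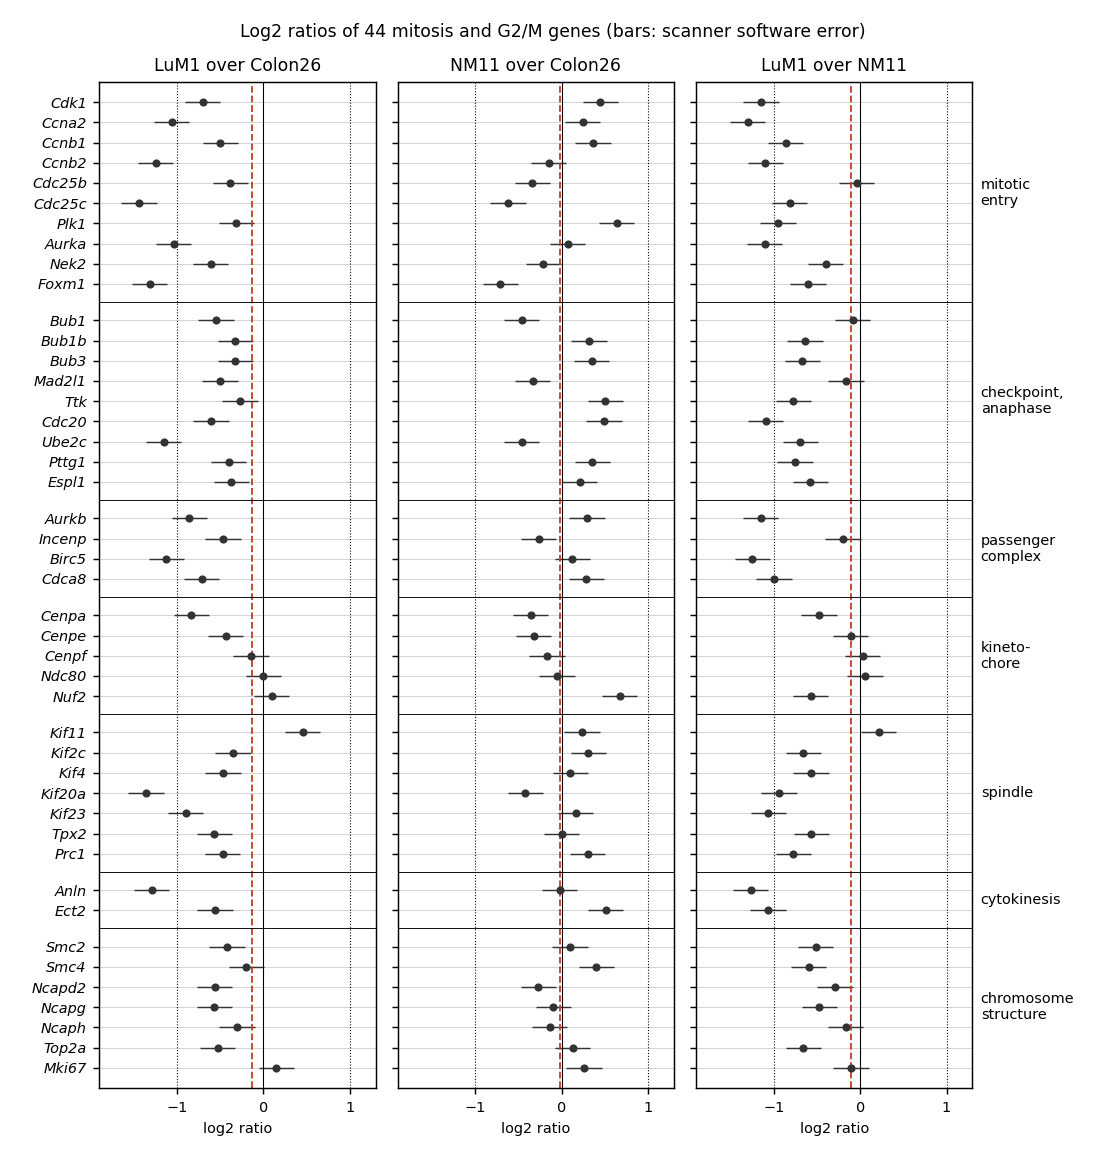
Log2 ratios of the 44 genes in the 3 comparisons, grouped by role, with 1 scanner software error as the bar. The dashed line is the median of all genes measured on both arrays (-0.13, -0.02 and -0.11 from left to right), and the dotted lines are 2-fold. With the 75th percentile scaling drawn here, in the left and right panels 41 of the 44 points lie below 0, and in the middle panel 19 do. Of all genes measured, 7230 of 12394 lay below 0 in the left comparison, 6479 of 12469 in the middle and 7317 of 12848 in the right.

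The 10 genes of mitotic entry, which are kinases, phosphatases and cyclins together with the transcription factor gene Foxm1, had a median log2 ratio of -0.87 for LuM1 over Colon26, -0.04 for NM11 over Colon26 and -0.91 for LuM1 over NM11. Cdk1, the kinase that starts mitosis, had signals of 3578 in Colon26, 2199 in LuM1 and 4879.9 in NM11. Ccna2, which encodes cyclin A2, had signals of 11506 in Colon26, 5511 in LuM1 and 13606 in NM11. Its log2 ratio was -1.06 against Colon26 and -1.30 against NM11, the lowest value of the 44 genes in the latter comparison, while its other probe did not reach 2-fold in either. The B-type cyclins were unlike in size. Ccnb2 had signals of 11946 in Colon26, 5033 in LuM1 and 10765 in NM11, and was 2.37-fold lower in LuM1 than in Colon26. Ccnb1 had signals of 5259 in Colon26, 3717 in LuM1 and 6754 in NM11, with log2 ratios of -0.50 against Colon26 and -0.86 against NM11. In each of these 4 genes LuM1 was lowest, and Colon26 and NM11 lay close together or NM11 lay above.

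The CDC25 phosphatases remove the inhibitory phosphates from CDK1. Cdc25c had signals of 2473 in Colon26, 911 in LuM1 and 1606 in NM11, a step down from Colon26 through NM11 to LuM1, and its log2 ratio of -1.44 was the lowest of the members for LuM1 over Colon26. Cdc25b had signals of 2376 in Colon26, 1821 in LuM1 and 1873 in NM11, with both sublines below Colon26 by less than 2 scanner errors on this probe and by more on a dimmer one. Aurka, the centrosomal Aurora kinase, had signals of 16767 in Colon26, 8163 in LuM1 and 17594 in NM11, so that Colon26 and NM11 differed by 0.07 on the log2 scale and LuM1 stood below both. Plk1, the Polo-like kinase, had signals of 13582 in Colon26, 10913 in LuM1 and 21099 in NM11. Its ratio to Colon26 was within 2 scanner errors in LuM1 (-0.32) and above them in NM11 (0.64). The centrosomal kinase gene Nek2 had signals of 969 in Colon26, 634 in LuM1 and 836 in NM11, in the same order as Cdc25c.

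Foxm1, the forkhead factor that drives transcription of G2/M genes, had signals of 7864 in Colon26, 3156 in LuM1 and 4795 in NM11. It was 2.49-fold lower in LuM1 than in Colon26, and its log2 ratio for NM11 over Colon26 was -0.71, also past 2 scanner errors. Mybl2, a partner factor on the same genes and not among the 44, had signals of 10015 in Colon26, 2723 in LuM1 and 5360.4 in NM11. Its log2 ratio was -1.88 for LuM1 over Colon26 and -0.98 for LuM1 over NM11. Signals of both factor genes stood in the order Colon26, NM11, LuM1 from high to low, as did those of Cdc25c, Ube2c and Kif20a among others. Whether their levels have a part in the levels of the other genes was not tested.

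**Figure D3:**
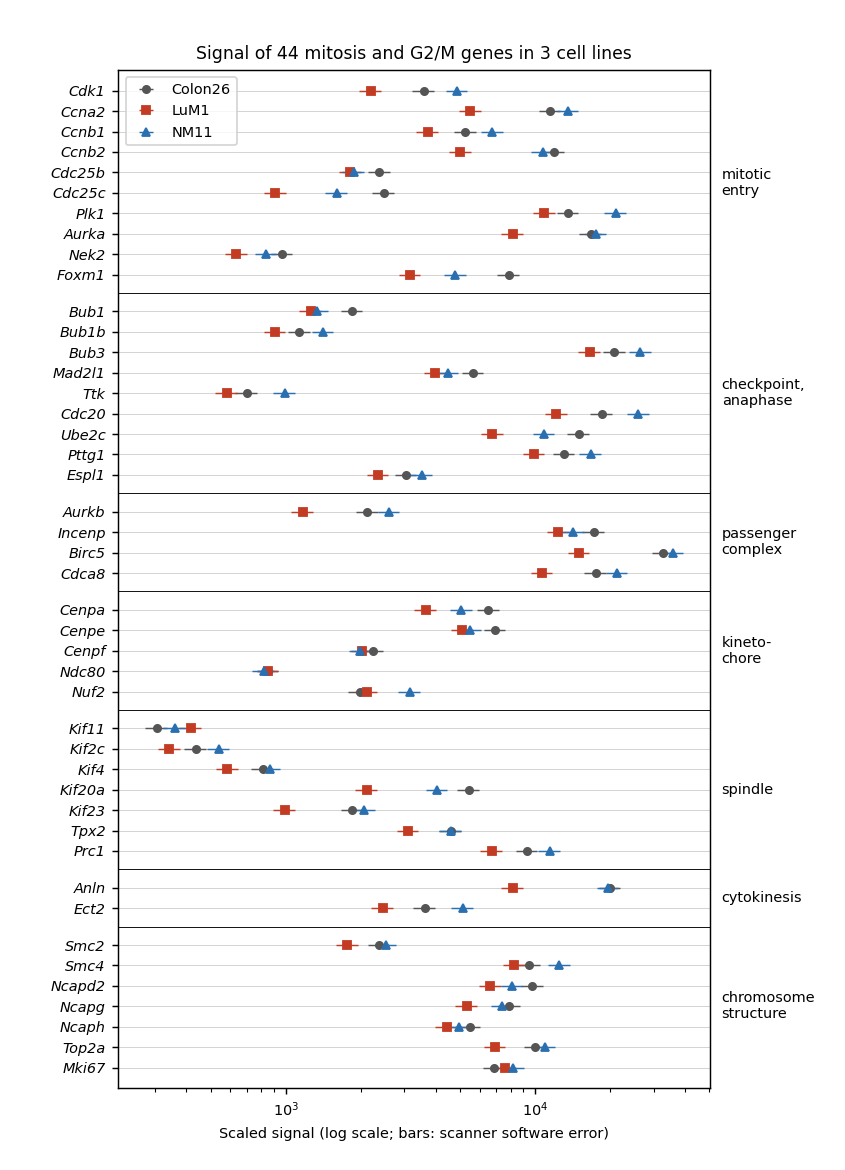
Scaled signals of the 44 genes in Colon26 (circles), LuM1 (squares) and NM11 (triangles), grouped by role, on a log axis with the scanner software's error as bars. Positions are to be compared within a row only, since each gene has its own probe. The LuM1 square is the leftmost mark in 39 of 44 rows with this scaling.

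The spindle checkpoint and anaphase genes had a median log2 ratio of -0.40 for LuM1 over Colon26 and -0.67 for LuM1 over NM11, and 0.31 for NM11 over Colon26. Bub1, Bub1b and Ttk encode kinases of the checkpoint. Bub1 had signals of 1849 in Colon26, 1262 in LuM1 and 1341 in NM11. Bub1b had signals of 1137 in Colon26, 907 in LuM1 and 1413 in NM11. Ttk had signals of 699 in Colon26, 579.5 in LuM1 and 991 in NM11. Only Bub1 of these 3 was lower in LuM1 than in Colon26 by more than 2 scanner errors, whereas Bub1b and Ttk were lower in LuM1 than in NM11 by more. Bub3 and Mad2l1, further parts of the checkpoint, had log2 ratios of -0.33 and -0.50 for LuM1 over Colon26. The activator Cdc20, which brings substrates to the anaphase-promoting complex, had signals of 18569 in Colon26, 12192 in LuM1 and 26042 in NM11. Its LuM1 signal was the lowest, with log2 ratios of -0.61 against Colon26 and -1.09 against NM11. Ube2c, the ubiquitin-conjugating enzyme of the same complex, had signals of 15026 in Colon26, 6752 in LuM1 and 10904 in NM11 and was the gene of this group that was 2-fold lower than in Colon26. Pttg1 (securin) and Espl1 (separase), the inhibitor and the protease of sister separation, had log2 ratios of -0.40 and -0.37 against Colon26, and of -0.75 and -0.58 against NM11.

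The chromosomal passenger complex corrects faulty attachments and positions the division site. All 4 of its genes were lower in LuM1 than in Colon26 by more than 2 scanner errors (median -0.79). With this scaling 31.8% of all genes were lower by as much. The median of the complex against NM11 was -1.07. Aurkb, its kinase, had signals of 2126 in Colon26, 1173 in LuM1 and 2604 in NM11. Birc5 (survivin) had signals of 32816 in Colon26, 15044 in LuM1 and 35724 in NM11 and was 2.18-fold lower in LuM1 than in Colon26 and 2.37-fold lower than in NM11. Cdca8 (borealin) had signals of 17576 in Colon26, 10706 in LuM1 and 21369.6 in NM11, and its ratio to NM11 fell just short of 2-fold. The scaffold Incenp differed least, with signals of 17212 in Colon26, 12433 in LuM1 and 14276 in NM11. Aurkb, Birc5 and Cdca8 were thus highest in NM11 with this scaling, and Incenp was highest in Colon26. All 4 differed between NM11 and Colon26 by less than 2 scanner errors. Scaled to Hprt, the log2 ratios of NM11 over Colon26 were -0.20 for Aurkb, -0.37 for Birc5 and -0.21 for Cdca8.

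The centromere and kinetochore genes were the group in which LuM1 stood least apart, with a median log2 ratio of -0.14 against Colon26, beside -0.13 for all genes, and of -0.11 against NM11, beside -0.11 for all genes. Ndc80, a microtubule-binding protein of the outer kinetochore, had signals of 849.6 in Colon26, 849 in LuM1 and 817 in NM11, and these differed by less than 1 scanner error. Cenpf had signals of 2241 in Colon26, 2029 in LuM1 and 1989 in NM11, also within 1 error. Nuf2, the partner of Ndc80, had signals of 1981 in Colon26, 2114 in LuM1 and 3148 in NM11, with NM11 alone standing higher. The centromeric histone Cenpa had the lowest ratio of the group, with signals of 6503 in Colon26, 3644 in LuM1 and 5069 in NM11. Its log2 ratio for LuM1 over Colon26 was -0.84. Cenpe, a kinetochore motor, was lower in LuM1 and in NM11 than in Colon26 by similar amounts (-0.44 and -0.33), the former past 2 scanner errors.

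The spindle motors and microtubule proteins had medians of -0.47 for LuM1 over Colon26, 0.16 for NM11 over Colon26 and -0.66 for LuM1 over NM11. The kinesins Kif20a and Kif23 had the lowest ratios of the group for LuM1 over Colon26 and for LuM1 over NM11. Kif20a, a kinesin of late mitosis, had signals of 5427 in Colon26, 2114 in LuM1 and 4054 in NM11 and was 2.57-fold lower in LuM1 than in Colon26. Kif23, the kinesin of the centralspindlin complex, had signals of 1854 in Colon26, 993 in LuM1 and 2073 in NM11 and was 2.09-fold lower in LuM1 than in NM11. Prc1, which bundles antiparallel microtubules, had signals of 9318 in Colon26, 6706 in LuM1 and 11466 in NM11. Tpx2, the activator of Aurora A on the spindle, had nearly equal signals in Colon26 and NM11, at 4606 in Colon26, 3101 in LuM1 and 4594 in NM11. Kif4 and Kif2c had log2 ratios of -0.47 and -0.35 against Colon26, the latter within 2 scanner errors. Kif11, the bipolar spindle motor that separates the poles, ran the other way with signals of 304 in Colon26, 416 in LuM1 and 359 in NM11, and its LuM1 value was the single one among the members above Colon26 by more than 2 errors.

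Cytokinesis was represented by a pair of genes. Anln (anillin), a scaffold of the contractile ring, had signals of 20026 in Colon26, 8159 in LuM1 and 19679.8 in NM11. It was 2.45-fold lower in LuM1 than in Colon26 and 2.41-fold lower than in NM11, while NM11 and Colon26 lay within 1 scanner error (-0.03). Ect2, which activates RhoA at the division site, had signals of 3617 in Colon26, 2449 in LuM1 and 5136 in NM11. Here NM11 stood above Colon26 (0.51) and LuM1 below it (-0.56), each by more than 2 scanner errors.

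None of the 7 genes of condensin and chromosome structure differed 2-fold in any comparison, which among so few genes is close to the shares of all genes (11.8% lower against Colon26 and 8.5% against NM11). The group median was -0.42 for LuM1 over Colon26 and -0.47 for LuM1 over NM11. Top2a, the topoisomerase that untangles sister chromatids, had signals of 10026 in Colon26, 6932 in LuM1 and 10957 in NM11. The condensin I genes Ncapd2 (-0.56), Ncapg (-0.57) and Ncaph (-0.31) had similar log2 ratios against Colon26, as did the shared condensin ATPase genes Smc2 (-0.42) and Smc4 (-0.20). Mki67, whose product Ki-67 coats mitotic chromosomes and is the usual stain for proliferating cells, had signals of 6877 in Colon26, 7628 in LuM1 and 8213 in NM11. Its log2 ratio was 0.15 for LuM1 over Colon26 and -0.11 for LuM1 over NM11, both within 1 scanner error, and the former lay between 0.14 and 0.60 under every alternative tried. The gene most used as a proliferation marker was therefore not lower in LuM1 than in Colon26, in contrast to cyclins, Aurora kinases and anillin on the same arrays.

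Where a gene had several probes, the brightest was used. In 22 genes with several probes, 20 had probes of 1 sign in each comparison, and the median spread between probes of a gene was 0.14 for LuM1 over Colon26, 0.13 for NM11 over Colon26 and 0.08 for LuM1 over NM11. The largest disagreements were in Smc2 and Pttg1. The dimmer probes of Smc2 gave log2 ratios of 0.00 and 0.31 for LuM1 over Colon26 where the brightest gave -0.42. A dim probe of Pttg1, with signals of 108, 110.3 and 434 in Colon26, LuM1 and NM11, gave 2.01 for NM11 over Colon26 where the bright probe gave 0.35. The dimmer Cdc25b probe had signals of 338, 169 and 181, just short of 2-fold for LuM1 over Colon26 and -0.90 for NM11 over Colon26, where the brightest gave -0.38 and -0.34. The other Ccna2 probe gave -0.71 for LuM1 over Colon26 and -0.82 for LuM1 over NM11, so that Ccna2 passed 2-fold on its brightest probe alone. A dimmer pair of Ccnb1 probes gave 1.08 and 0.98 for NM11 over Colon26 where the brightest gave 0.36. In Birc5, Cdc20, Aurkb and Incenp the probes of a gene differed by less than 1 scanner error in every comparison. The RefSeq gene table also lists pseudogenes of Ccnb1, Ccnb2 and Kif4, and whether these probes read them was not tested.

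Members with and without the CHR core in their window had similar medians for LuM1 over Colon26 and less similar ones in the other comparisons. The 26 members with it had a median of -0.50 for LuM1 over Colon26, and the 10 without it had -0.47. For LuM1 over NM11 the medians were -0.67 and -0.28, and for NM11 over Colon26 they were 0.18 and -0.18. The 8 members without a window entered neither group. Their log2 ratios of LuM1 over Colon26 were Cdc25c -1.44, Kif20a -1.36, Foxm1 -1.32, Ccna2 -1.06, Aurkb -0.86, Tpx2 -0.57, Incenp -0.47 and Smc4 -0.20. Cdc25c, Kif20a and Foxm1 had the lowest of all 44 genes, so these medians leave out the most changed members. Both Mki67 and Kif11, printed above and not lower in LuM1 than in Colon26, held the core, and Mki67 held it at 2 places further than 50 bases from the start. Ncapd2 (-0.56) and Kif2c (-0.35), both below 0 for LuM1 over Colon26, also held it only further than 50 bases from the start. The members were left out of the same count over the other genes with a window and a ratio. For LuM1 over Colon26 the 1460 with the core had a median of -0.16 and the 8426 without it had -0.13. In these other genes the medians with and without the core were -0.12 and -0.10 for LuM1 over NM11. For NM11 over Colon26 they were -0.01 and -0.03.

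Other cell cycle lists were placed beside the 44 genes. The 98 other G2/M genes had a median log2 ratio of -0.44 for LuM1 over Colon26, 0.06 for NM11 over Colon26 and -0.42 for LuM1 over NM11. Against Colon26 12 of them (12.2%) were 2-fold lower in LuM1, beside 11.8% of all genes, and 1 was 2-fold higher, beside 13.1%. Mybl2 led the lower ones, followed by Cdc23 (-1.41), a subunit of the anaphase-promoting complex, and Kifc1 (-1.28), a minus-end motor. The higher one was Cdc27, another subunit of the anaphase-promoting complex. Its signals were 560 in Colon26, 8431 in LuM1 and 591 in NM11, a 15.1-fold ratio, and its other probe gave 208, 2552 and 176. Whether these probes read Cdc27 alone could not be checked, and Cdc23 of the same complex did not move with it. The second probe of Cdc23, dim at 58.4, 51.8 and 56.0, gave -0.18. In NM11 Aspm (1.09) and Cenpp (1.08) were 2-fold higher than in Colon26. Against NM11 the lowest in LuM1 were the kinetochore gene Spc24 (-1.39), the spindle gene Fam83d (-1.23) and the kinetochore gene Pmf1 (-1.14).

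Genes of S phase had medians over 49 measured genes of -0.53 against Colon26 and -0.56 against NM11, and of -0.03 for NM11 over Colon26. Of these, 7 (14.3%) were 2-fold lower in LuM1 than in Colon26 and 7 than in NM11, beside 11.8% and 8.5% of all genes. The lowest against Colon26 were Tipin (-1.31), Ccne1 (-1.30), which encodes cyclin E1, and Chaf1a (-1.20), a chromatin assembly factor subunit. Against NM11 the polymerase subunit gene Pold2 (-1.20) and the origin licensing gene Cdc6 (-1.19) were among the lowest. A primase subunit gene, Prim2, was higher, with dim signals of 66.4, 202 and 144 in Colon26, LuM1 and NM11.

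The inhibitors of the cell cycle and G2 arrest genes did not share a direction. Over 20 measured genes the median was -0.17 for LuM1 over Colon26. Of 21 genes with a ratio or a bound, 4 were 2-fold higher and 5 (23.8%) lower, against 13.1% and 11.8% of all genes. The highest log2 ratios of LuM1 over Colon26 were those of Sfn (14-3-3 sigma, which holds CDK1 in the cytoplasm, 2.24), Ccng2 (cyclin G2, 1.80) and Gas1 (1.78). The lowest were those of Gadd45b (-2.60), Gas2l3 (-1.87) and Ccng1 (-1.73). Gadd45b, a stress gene of the GADD45 family, had signals of 2229.5 in Colon26, 369 in LuM1 and 5735 in NM11, the widest difference of this list between the sublines, at 15.6-fold. Gas2l3 was lowest in NM11, with signals of 920 in Colon26, 252 in LuM1 and 52.6 in NM11. Gas2l3 is counted in this list as it was drawn up, also among the 5 lower genes. Whether it inhibits or arrests the cycle was not tested, and its signals are not read as those of an inhibitor. In NM11 Gas1 (2.83) was 2-fold higher than in Colon26 and Rbl2 (-1.16), a pocket protein gene, 2-fold lower.

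**Figure D4:**
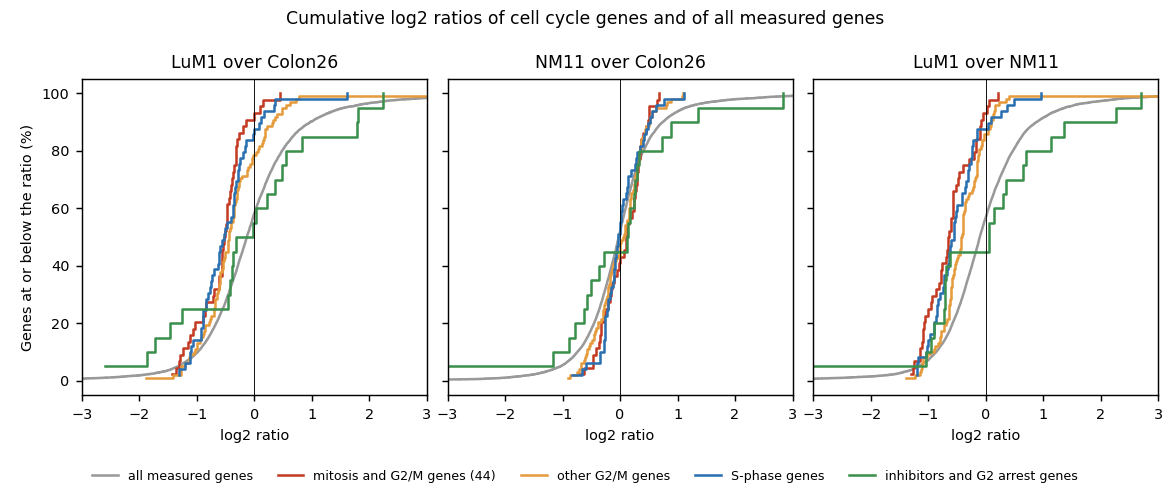
Cumulative share of genes in percent at or below each log2 ratio, for all measured genes and 4 gene lists, in the 3 comparisons. For LuM1 over Colon26 and LuM1 over NM11 the curves of the 44 genes (medians -0.52 and -0.65), of other G2/M genes and of S-phase genes lie left of that of all genes (medians -0.13 and -0.11), and for NM11 over Colon26 they run along it.

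The size of these ratios depended on the scaling of the arrays. Scaled to Hprt, the internal control of the study's RT-qPCR, the median of the 44 genes was -0.42 for LuM1 over Colon26. Hprt itself had signals of 11101 in Colon26, 10351 in LuM1 and 15573 in NM11 before that. In the authors' processed values, which multiply each array by 1 factor, the median for LuM1 over NM11 was -0.24, with 32 of 44 ratios below 0. There no member was 2-fold lower in LuM1 than in Colon26 or NM11, against 6.09% and 4.43% of all genes. The same scalings moved all genes together, by 0.59 for LuM1 over NM11 with Hprt, and by 0.45 for LuM1 over Colon26 with the authors' values. In these values 77.7% of all genes called 2-fold in LuM1 over Colon26 were higher, against 52.5% with the scaling used here. The distance between the members and all genes was -0.39, 0.14 and -0.54 for LuM1 over Colon26, NM11 over Colon26 and LuM1 over NM11, and 1 factor per array cannot move it. Settings that can move it gave -0.29 (quantile normalization) and -0.18 (no filter on dim probes) for LuM1 over Colon26, and -0.39 and -0.72 for LuM1 over NM11. Against the 8314 other genes whose mean signal lay within the range of the members, a comparison added after the values were seen, the distance for LuM1 over Colon26 was -0.35, and against the 3329 genes between the quartiles of the members' mean signals it was -0.28.

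**Figure D5:**
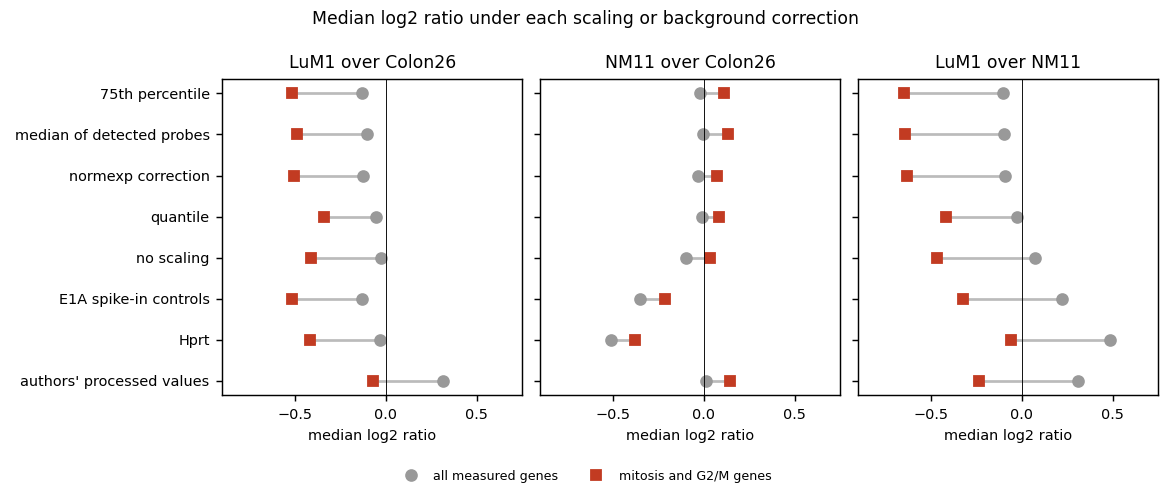
Median log2 ratio of the 44 genes (squares) and of all measured genes (circles) under 8 scalings or background corrections, in the 3 comparisons. A factor per array moves both marks alike by construction, so that their distance carries information only in the rows of the normexp correction and quantile normalization. The square stays left of the circle for LuM1 over Colon26 and LuM1 over NM11 and right of it for NM11 over Colon26.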

How the data were processed

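RNA of Colon26, LuM1 and NM11 cells was measured on 1 single-colour Agilent mouse array each, all 3 on 1 slide. The authors deposited intensity values per spot from Agilent Feature Extraction 11.5.1.1. In these the background was already removed and spatial trends were evened out, with arrays not yet brought to 1 scale. Beside them stood flags of 0 or 1 that mark outlier, saturated and detected spots. Other deposited values (unit other) were names and grid positions. The authors' processed values equal the scanner intensity times 0.654, 0.829 and 0.706 for Colon26, LuM1 and NM11, and how these factors were set is not given in the sources used here.

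From these files, control spots were left out, as were 137, 74 and 99 outlier spots. Probe values were means over spots, divided by the array's 75th percentile over all 59305 spots, and log2 ratios were taken. A probe not well above background entered only as a bound. Of 56605 probes, 32994 (58.3%) were named through RefSeq accessions, and a gene was read from its probe with the highest mean log2 signal. Calls were a ratio of at least 2-fold and, separately, a ratio beyond 2 scanner errors, beside the share of all genes called the same way. Within an array, repeated spots had a median SD of 0.035 to 0.040 (log2). The number of arrays limits the precision, and with 1 array per line no test was run.

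Genes named were all members, of 3 further cell cycle lists up to 3 genes higher and 3 lower per comparison, those furthest past 2-fold, and all marker genes as counts and sums. A gene that this rule names is not reported here. The members and lists were chosen with earlier results of these data known. Alternatives were other scalings (none, median of detected probes, Hprt, E1A spike-in controls, quantile), the authors' processed values, a normexp correction (offset 50), other detection rules, other choices of probe, leaving out clustered spots, and thresholds of 1.5-fold and 4-fold. The normexp correction used the median brightness of a spot, since the files hold no mean. Promoter windows came from RefSeq (GRCm38.p6). Computing used numpy 2.4.6, pandas 2.3.3 and matplotlib 3.10.9 under Python 3.11.15, and limma 3.58.1 under R 4.3.3.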

Additional observations from a re-analysis of the deposited data

Results flagged for a closer look

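In 3 of the 44 genes the sublines stood on opposite sides of Colon26, LuM1 lower and NM11 higher, each by more than 2 scanner errors. The share of all genes with this pattern was not counted, so the count is not read as particular to the members. Taken singly, 31.8% of all genes were lower in LuM1 and 19.1% were higher in NM11 than in Colon26 by as much. The log2 ratio of LuM1 over Colon26 less that of NM11 over Colon26 was -1.15 for Cdk1, -1.09 for Cdc20 and -1.07 for Ect2. With 1 array per line this difference was not tested, and both ratios share the Colon26 array. The opposite sides depended on the scaling. With Hprt or the E1A spike-in controls none of the 3 NM11 signals stood above Colon26 by more than 2 scanner errors, and in the authors' processed values none of the 3 LuM1 signals stood below it by as much.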

How the results depend on the processing

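No paired analysis was possible because each line has 1 array, and no array could be left out for the same reason. Without scaling, 3 members were 2-fold lower in LuM1 than in NM11, against 6.32% of all genes. With Hprt, 2 members were 2-fold lower in NM11 than in Colon26 (median -0.38) and 0 in LuM1 than in NM11 (median -0.060). The shares of all genes were 20.1% and 3.52%. With the E1A spike-in controls these counts were 1 (median -0.21) and 0 (median -0.32), against 14.5% and 4.94% of all genes. Quantile normalization gave 5 members lower in LuM1 than in Colon26 and 2 lower than in NM11 (median -0.41), against 11.3% and 8.61%. The authors' processed values gave 0 and 0 (medians -0.072 and -0.24), against 6.09% and 4.43%. Without a filter on dim probes the median of members less that of all genes was -0.18 for LuM1 over Colon26 and 0.36 for NM11 over Colon26. The mean over probes and the dimmest detected probe each made 1 member 2-fold higher in NM11 than in Colon26, against 8.17% and 8.55% of all genes. At 1.5-fold, 16 members were lower in LuM1 than in Colon26, 2 were higher and 2 lower in NM11 than in Colon26, and 25 were lower in LuM1 than in NM11, and at 4-fold 0 and 0 were lower in LuM1. The shares of all genes at 1.5-fold and 4-fold were not counted. The cause was not tested, except that thresholds and scaling factors move counts by construction. The other alternatives kept these counts within 1.5 times and these medians within 1 scanner error. Of the log2 ratios of single members under all alternatives, 338 moved by more than 1 scanner error and 1378 by less, and no member past 2-fold changed its direction. The split of all genes called 2-fold was 52.5% higher for LuM1 over Colon26, 51.3% for NM11 over Colon26 and 56.6% for LuM1 over NM11. It was 77.7% and 81.4% for the LuM1 comparisons in the authors' values, 68.6% for LuM1 over NM11 without scaling, 29.0% and 77.2% for NM11 over Colon26 and LuM1 over NM11 with E1A, and 20.1% and 87.8% with Hprt.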
